A study of Mus musculus with 2 samples.

Results

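MHC class I antigen presentation was followed through 10 genes, H2-K1, H2-D1, B2m, Tap1, Tap2, Tapbp, Psmb8, Psmb9, Nlrc5 and Erap1, matched by name. The genes were chosen with earlier results of these data known, so their counts describe the list and are no independent check. The 10 genes are read by 19 of the 56589 non-control probes with a usable spot on both arrays. The tested cells were mouse embryonic stem cells labelled KO-Linc1548, and the cells set against them were cells of the same line labelled WT. The line is an established mouse embryonic stem cell line that carries a GFP reporter at Sox1, and Linc1548 is a long intergenic non-coding RNA. Both cultures had grown as floating aggregates in serum-replacement medium to day 5 of neural differentiation, and total RNA was hybridised with Cy3 label on 1 array each. The labels do not say how the knockout was made or whether it is a single clone. Each group has a single array, without replicates, and the differences are therefore descriptions of these arrays that carry no test.

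Class I molecules show peptides from inside the cell to cytotoxic T cells. Proteins are cut by the proteasome, the peptides are carried into the endoplasmic reticulum by the TAP transporter, trimmed there, and loaded onto a heavy chain paired with beta-2 microglobulin. Interferon-gamma raises most of these steps together, and undifferentiated mouse embryonic stem cells are known for little class I on their surface.

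In KO cells the members that encode proteasome subunits and the TAP transporter were higher. The heavy chain genes among the members differed little, and the gene of the light chain was lower without reaching 2-fold. Psmb8 was 11.3-fold, Psmb9 6.28-fold and Tap2 5.25-fold higher. In the main scaling H2-K1 was 1.4-fold and H2-D1 1.2-fold higher, and B2m was 1.7-fold lower. A difference of 2-fold or more was found for 6 of the 9 measurable members, all 6 of them higher and 0 lower. With normexp background correction 3 were higher and 0 lower, and with spike-in centring 4 were higher and 1 lower. Of all 18671 genes, 20.3% passed 2-fold in the main scaling, with 11.5% (2149 genes) higher and 8.81% (1644 genes) lower. Among the same genes, 1557 were higher and 1048 lower with normexp, and 1390 were higher and 2986 lower with spike-in centring. More of all genes were called lower with spike-in centring than in the main scaling. The member called lower there was B2m, and the part of this shift in its call was not tested. At 1.5-fold, 6 members were higher and 1, B2m, lower, against 21.6% and 16.7% of all genes, or 38.3% in either direction. The median log2 difference was 1.1 over these 9 members and 0.10 over all genes, and it was 1.24 over all 10 members with Nlrc5 at its lower bound.

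The sequences of 4 probes are shown: those behind the Psmb8 and Psmb9 differences, an H2-K1 probe that shares bases with related genes, and the Tap1 probe that was well above background on the KO array alone and gives only a lower bound. They are given 5′ to 3′ from the array files, in mouse build mm9, and each holds a reading frame with no stop codon. Capitals mark a run of 29 bases that the H2-K1 probe shares with probes of H2-T23 and H2-L.
Psmb8, chr17:34337771-34337830, plus strand: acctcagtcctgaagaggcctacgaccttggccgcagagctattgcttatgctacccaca
Psmb9, chr17:34319174-34319233, minus strand: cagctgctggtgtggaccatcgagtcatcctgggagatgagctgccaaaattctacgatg
Tap1, chr17:34330854-34330913, plus strand: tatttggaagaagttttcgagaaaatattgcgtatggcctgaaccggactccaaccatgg
H2-K1, chr17:34133984-34134043, minus strand: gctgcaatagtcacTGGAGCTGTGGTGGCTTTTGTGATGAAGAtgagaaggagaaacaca
Signal of related heavy chain transcripts on this H2-K1 probe was not separated. No other probe of the members shared a run of 20 or more bases with a probe of another gene.

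Signals below are processed intensities scaled so that both arrays have the same 75th percentile, and ± is the error the scanner software assigns to a single spot. It covers the spot and not the culture. A probe was called well above background by the flag the software sets, and no probe was saturated. The lowest scaled signal well above background was 30.5 on the KO array and 21.3 on the WT array. Levels are not compared between probes.

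Psmb8 encodes the immunoproteasome subunit that takes the place of Psmb5 in the catalytic core. Its single probe read 1326 ± 133 on the KO array, against 117 ± 12.5 on the WT array, a log2 difference of 3.50. It was well above background on both arrays, and 99.3% of all measured genes had a smaller difference or a difference in the other direction.

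Psmb9 encodes the immunoproteasome subunit that takes the place of Psmb6. The probe of its mRNA read 902 ± 90.4 on the KO array, against 144 ± 15.1 on the WT array, a log2 difference of 2.65. A second Psmb9 probe, designed on another transcript record (chromosome 17, 34322762 to 34322821, mm9), read 11.6 ± 6.47 on the KO array and 5.51 ± 4.36 on the WT array, and was well above background on neither. Psmb9 therefore rests on the mRNA probe alone.

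Tap1 and Tap2 encode the 2 chains of the peptide transporter of the endoplasmic reticulum. The Tap2 probe near the end of the transcript (chromosome 17, 34353116 to 34353175, plus strand) read 1460 ± 146 on the KO array, against 278 ± 28.1 on the WT array, a log2 difference of 2.39. The other Tap2 probe begins at base 54 of its transcript, and on both arrays its signal was a surrogate value that the software puts in where a spot is too dim to measure. Its values of 6.15 and 4.28 in KO and WT cells have no order.

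Tap1 differed less than Tap2. Its brighter probe (chromosome 17, 34334022 to 34334081, plus strand) read 370 ± 37.6 on the KO array and 173 ± 17.9 on the WT array, a log2 difference of 1.1. The probe printed above read 39.8 ± 8.27 on the KO array, where it was well above background, and 12.7 ± 4.81 on the WT array, where it was not, so it was at least 1.87-fold higher in KO cells. Under spike-in centring the brighter probe differed by 0.71, under 2-fold, and with normexp background correction by 0.92.

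Tapbp encodes tapasin, which holds empty class I molecules at the transporter and edits their peptides. One probe (chromosome 17, 34066022 to 34066081) read 4022 ± 402 on the KO array and 1662 ± 166 on the WT array, a log2 difference of 1.28. The other (34063096 to 34063155) read 181 ± 19.2 and 108 ± 11.6 in KO and WT cells, a difference of 0.75. Their median of 1.01 lies at the 2-fold limit and fell below it with loess (0.99), quantile normalization (0.97), normexp (0.91) and spike-in centring (0.62).

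Erap1 encodes the aminopeptidase that trims peptides in the endoplasmic reticulum. The probe of its mRNA (chromosome 13, 74828969 to 74829028) read 87.5 ± 11.0 on the KO array, against 32.6 ± 5.52 on the WT array, a log2 difference of 1.43, or 0.79 with normexp. The WT value is close to the dimmest signals called well above background. Probes of a cDNA clone of the locus read 29.3 ± 7.19 and 7.61 ± 7.64 on the KO array, against 10.8 ± 4.59 and 5.19 ± 5.21 on the WT array, and neither was well above background on either array.

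Nlrc5 encodes the transactivator that class I promoters depend on in lymphoid cells. It was well above background on the KO array alone. Its probe at the end of the transcript (chromosome 8, 97051105 to 97051164) read 55.7 ± 8.58 on the KO array and 10.7 ± 4.66 on the WT array, at least 2.61-fold higher in KO cells. A second probe read 22 ± 7.12 and 8.63 ± 4.95 in KO and WT cells and was well above background on neither array, so no difference was taken from it.

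H2-K1 and H2-D1 encode the classical heavy chains. The H2-K1 probe at the end of the transcript (chromosome 17, 34133055 to 34133114, minus strand) read 11276 ± 1130 on the KO array and 8038 ± 804 on the WT array. The printed H2-K1 probe read 2022 ± 202 and 1440 ± 144 in KO and WT cells. Both probes differed by 0.49 on the log2 scale. The H2-K1 difference fell to 0.1 with spike-in centring and 0.08 without centring between arrays. Both genes' differences stayed within 2-fold under every setting run. The H2-D1 probe (chromosome 17, 35403886 to 35403945) read 1946 ± 195 on the KO array and 1625 ± 163 on the WT array, a log2 difference of 0.26 that turned to −0.13 with spike-in centring and −0.14 without centring between arrays.

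B2m encodes beta-2 microglobulin, the light chain shared by all classical class I molecules. The probe of its mRNA (chromosome 2, 121978401 to 121978460) read 4430 ± 443 on the KO array, against 7817 ± 782 on the WT array, a log2 difference of −0.82. A probe of a cDNA clone named B2m by the array design (121974599 to 121974658) read 87.1 ± 11.1 and 143 ± 15.1 in KO and WT cells, a difference of −0.72. B2m was the only member below 0 in the main scaling, and it passed 2-fold with spike-in centring (−1.16) and without centring (−1.17). Of all measured genes, 12.4% had a lower value.

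**Figure D1:**
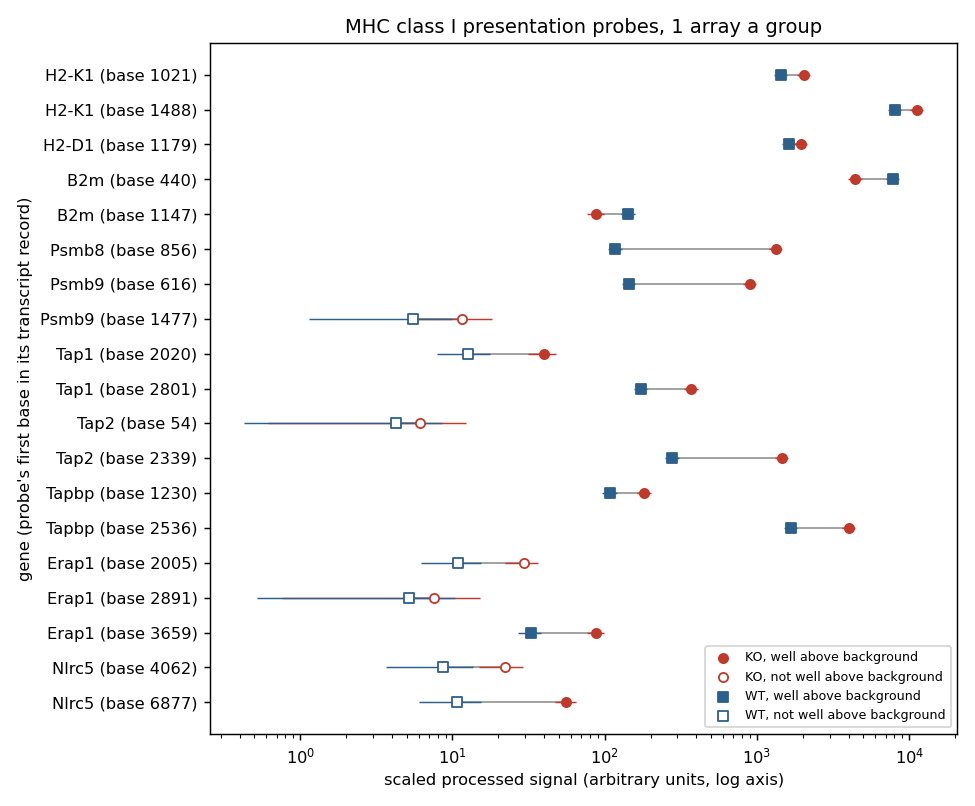
Scaled processed signal (log axis) of the 19 member probes on the KO array (circles) and the WT array (squares), with the gene and the probe's first base in its transcript record. Filled symbols are well above background, bars are the software's error (shortened on the lower side where it approaches the signal); Psmb8 lies at 1326 and 117, and the B2m pairs alone have the KO symbol to the left.

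**Figure D2:**
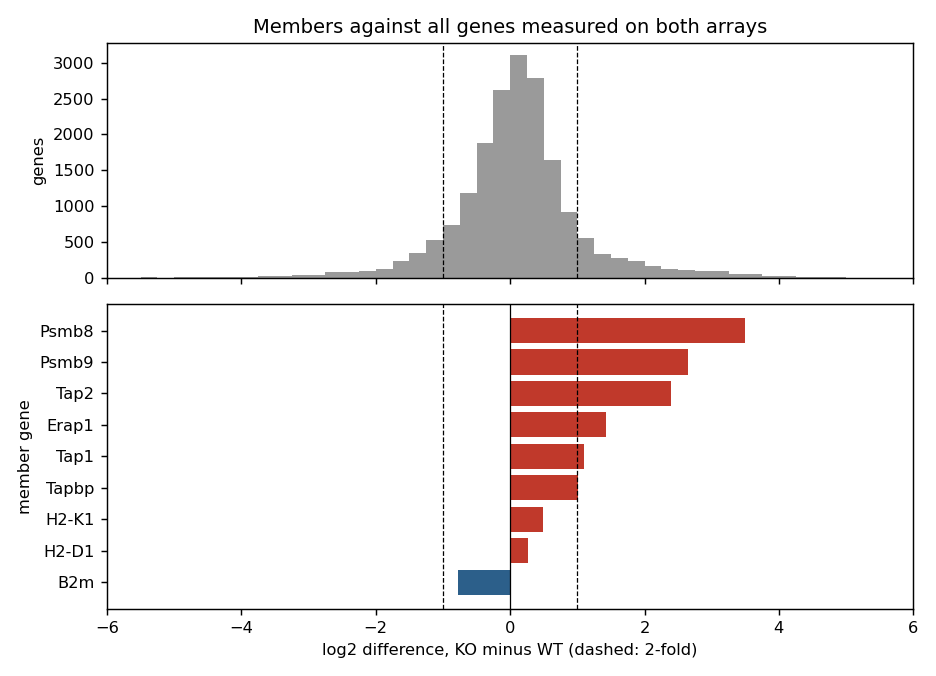
Upper panel, number of genes by log2 difference, KO minus WT, for the 18671 genes measured on both arrays; lower panel, the same difference for the 9 measured members, the median of their probes. Dashed lines mark 2-fold; Psmb8 at 3.50 is at the upper end and B2m at −0.77 at the lower.

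The size of a member's difference moved with the processing, and Psmb8 had the highest value under each setting run. Psmb9 and Tap2 were both at 2.2 with normexp, and without the filter on dim probes Nlrc5 and Psmb9 were both at 1.86, above Tap2 at 1.46. Before centring, the 75th percentile of the KO array lay −0.40 below that of the WT array on the log2 scale, whereas 8 spike-in probes differed by −0.01. Centring on the spike-in probes moved the median of all genes to −0.29. Psmb8 ranged from 2.96 to 3.50, Psmb9 from 1.86 to 2.65 and Tap2 from 1.46 to 2.40 over the main scaling and 8 alternatives, and these 3 were at least 2-fold higher in each. Tap1 was past 2-fold in 6 of the settings and Tapbp in 4.

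**Figure D3:**
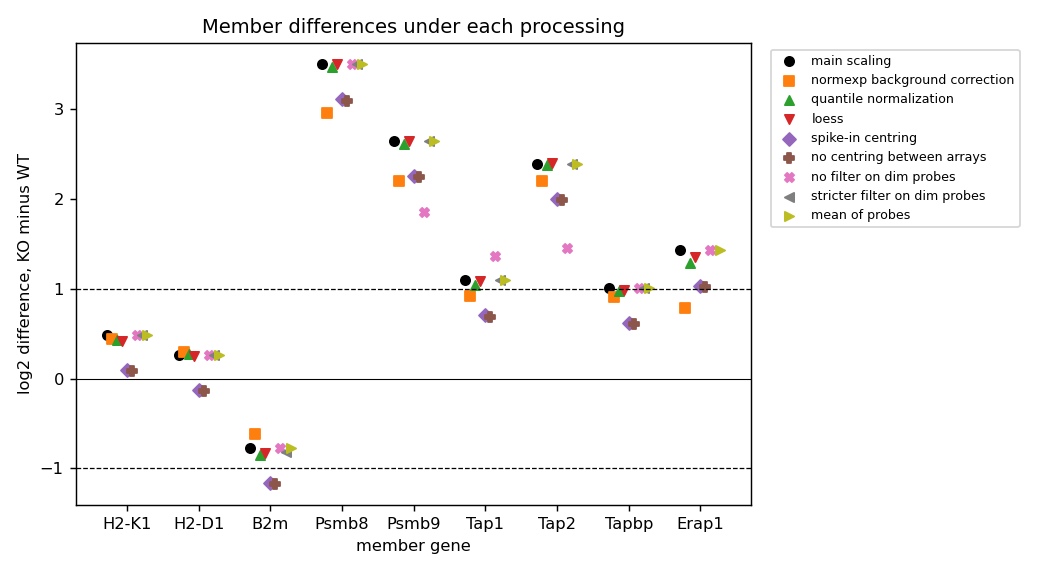
Log2 difference, KO minus WT, of each measured member (horizontal axis) under the main scaling (black circles) and the alternative settings (other symbols); dashed lines mark 2-fold. Psmb8, Psmb9 and Tap2 lie above the upper line under all settings, H2-K1 and H2-D1 lie between the lines, and B2m lies near the lower.

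Of 19 other proteasome core and activator genes, 1 was at least 2-fold higher and 0 lower, with a median of 0.33 that turned to −0.07 with spike-in centring. The exception was Psmb10, the subunit that takes the place of Psmb7 in the immunoproteasome. It read 20098 on the KO array and 5211 on the WT array, 3.86-fold higher. The constitutive counterparts Psmb5, Psmb6 and Psmb7 differed by 0.35, 0.24 and 0.19 in the main scaling, and the lowest of the list was Psmb1 at 0.14. Of 9 cytosolic and other peptidases, 1 was at least 2-fold higher. That gene was Ide, the insulin-degrading enzyme, at 1.16 with probes from 0.79 to 1.54, and the lowest was Npepps at 0.02. With normexp, spike-in centring or no centring, 0 peptidases passed 2-fold, and the list's median of 0.35 turned to −0.05 with spike-in centring.

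Peptide loading beyond tapasin had a share of genes past 2-fold upwards near that of all genes. Of 10 chaperones and translocon genes, 1 was at least 2-fold higher and 0 lower, against 11.5% and 8.81% of all genes. The list's median was 0.23, or −0.16 with spike-in centring. Tapbpl, the tapasin-related peptide editor, read 269 on the KO array and 68.5 on the WT array, 3.93-fold higher, but its WT signal is under the minimum of 100 that a stricter filter on dim probes asks for, and 0 genes of the list passed there. Calr, which encodes calreticulin of the loading complex, differed by −0.05, and Hspa5 was the lowest of the list at −0.25.

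Other class I and class I-like genes mostly stayed near H2-K1 and H2-D1. Of 21 measured, 3 passed 2-fold upwards and 0 downwards, with a median of 0.44, or 0.05 with spike-in centring. H2-M3, which presents formylated peptides, read 587 on the KO array and 117 on the WT array, 5.01-fold higher. H2-M5 was 6.24-fold higher, with probes at 2.48 and 2.81. Hfe, a class I-like regulator of iron uptake, read 94.7 and 27.6 in KO and WT cells, 3.43-fold higher. The lowest was Cd1d2, a lipid-presenting molecule, at −0.62. H2-Q1 was well above background on the KO array alone, at least 2.98-fold higher. Under the stricter filter 1 was higher, and 1 gene was 2-fold lower with spike-in centring. Since heavy chain genes are close in sequence, probes named for different H2 genes may share transcripts.

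Among factors of class I promoters, 1 of 14 passed 2-fold upwards and 1 downwards, with a median of −0.03. Irf1, an interferon-induced activator of class I, Tap1 and Psmb9 promoters, was 7.11-fold higher, with probes at 2.76 and 2.90. Irf2, which competes with it for the same sites, read 35.4 on the KO array and 141 on the WT array, 4.0-fold lower. Its KO signal is close to the lowest signal well above background, and 0 factors passed 2-fold downwards with normexp or with the stricter filter. The subunits of the RFX complex that binds the X box, Rfx5, Rfxap and Rfxank, differed by −0.50, −0.11 and −0.28, each within 2-fold in the main scaling.

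Interferon receptors and their signalling chain had a median of −0.25 over 14 measured genes, with 1 past 2-fold upwards and 1 downwards. Socs1, a feedback inhibitor of the pathway, read 549 on the KO array and 230 on the WT array, 2.39-fold higher. With spike-in centring 0 genes of the list passed 2-fold upwards and 3 downwards, and without centring 0 and 4. Jak2, a kinase of the interferon-gamma receptor, was 3.06-fold lower, with probes at −2.19 and −1.03. Irf7, a factor of the type I response, was well above background on the KO array alone, at least 1.69-fold higher. Interferon-induced genes outside antigen presentation had 14 of 16 measured members past 2-fold upwards and 0 downwards (median 2.38, or 1.99 with spike-in centring), from Mx2 at 1.26 to Oasl2 at 3.91, with Usp18 at −0.87 and Ifit2 at −0.97 below 0. Ifit1, Ifit3 and Mx1 were well above background on neither array, and Oas3, Oasl1 and Rsad2 on the KO array alone. Oasl2, the highest, read 375 on the KO array and 25.0 on the WT array, the WT value being close to background. With the stricter filter 9 interferon-induced genes passed 2-fold upwards, and with spike-in centring 2 passed downwards.

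Class II presentation, which professional antigen-presenting cells use, was near background for much of its list. Of 11 genes, 5 were well above background on neither array, among them the class II transactivator Ciita. Of the 6 measured, 2 passed 2-fold upwards and 0 downwards. H2-Eb1, a class II beta chain, read 419 on the KO array and 108 on the WT array, and H2-Oa read 258 and 124. The count higher was 1 with normexp, quantile normalization, spike-in centring or no centring. Cd74, the invariant chain, read 63.2 and 84.4 in KO and WT cells and was the lowest at −0.42.

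**Figure D4:**
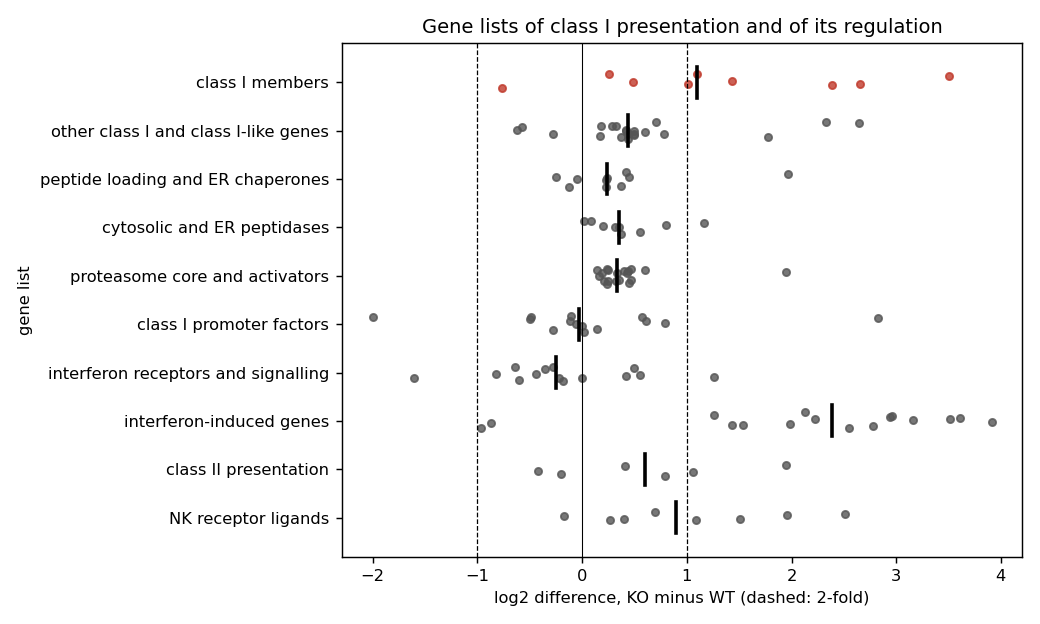
Log2 difference, KO minus WT, of every gene measured on both arrays in the lists of class I presentation, its regulation and related ligands; each point is a gene, the short bar is the list median, and dashed lines mark 2-fold. Class I members have a median of 1.1, proteasome core and activator genes 0.33 with Psmb10 apart at 1.95, and interferon-induced genes 2.38.

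Psmb9, Tap1, Psmb8 and Tap2 lie next to each other in the class II region of chromosome 17, in that order, and all 4 were at least 2-fold higher. Within 250 kb of the Psmb8 probe, 16 other genes were measured; 3 passed 2-fold upwards and 2 downwards, with a median of 0.23. Those higher were H2-Eb1, H2-Oa and Btnl2 (log2 1.40). Ring1, a Polycomb subunit, was 2.79-fold lower and H2-Ke6 3.31-fold lower. Brd2, which lies −85.3 kb from Psmb8 and codes for a bromodomain protein, differed by −0.12. Over 932 genes with a measured probe on chromosome 17, 12.2% were at least 2-fold higher and 6.87% lower, with a median of 0.13. Over all genes these values were 11.5%, 8.81% and 0.10.

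**Figure D5:**
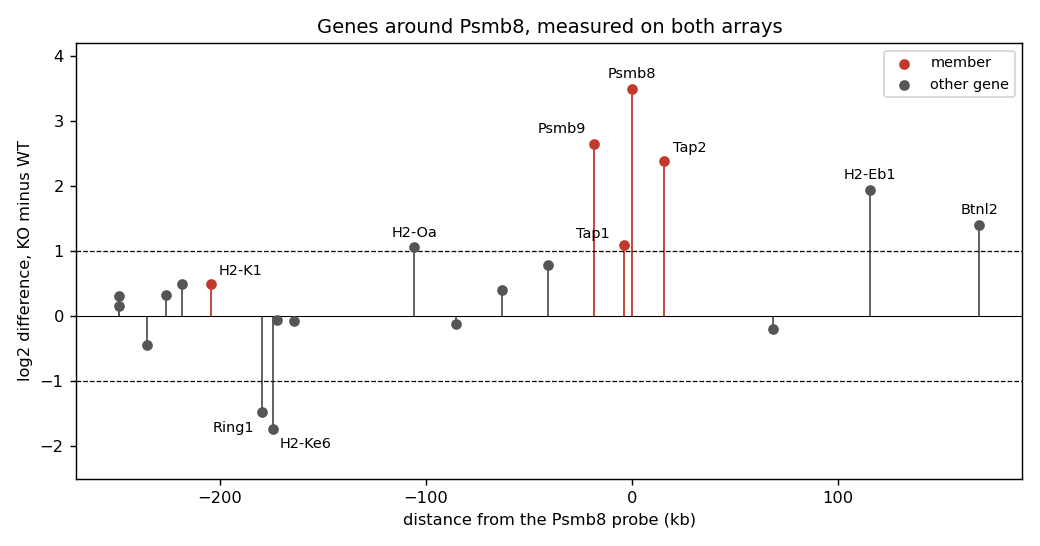
Log2 difference, KO minus WT, of genes measured on both arrays against the distance of their probes from the Psmb8 probe in kb, members in red and other genes in grey; dashed lines mark 2-fold. Psmb9, Tap1, Psmb8 and Tap2 stand together at 2.65, 1.1, 3.50 and 2.39, with H2-Ab1 at −0.20 and H2-DMb1 at 0.79 on either side.

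Promoter sequences are shown for the gene that differed most, for a heavy chain and the light chain, and for the stretch that Psmb9 and Tap1 share, since these genes are transcribed away from each other. They are from RefSeq in build GRCm38.p6, so their coordinates differ from the probes' build, and each ends at the base before the annotated start. Capitals mark matches, on either strand, to AANNGAAA (the core read by interferon regulatory factors), CCAAT (read by NF-Y), TGACG (a CRE-like element as in the X2 box) and the kappa B element of the class I enhancer.
Psmb8, chr17:34197945-34198194, plus strand: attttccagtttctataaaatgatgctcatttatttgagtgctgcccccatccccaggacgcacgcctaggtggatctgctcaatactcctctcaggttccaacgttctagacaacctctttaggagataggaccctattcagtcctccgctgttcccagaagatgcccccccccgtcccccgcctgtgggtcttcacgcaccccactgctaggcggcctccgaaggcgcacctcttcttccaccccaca
Psmb9 to Tap1, chr17:34187331-34187555, plus strand: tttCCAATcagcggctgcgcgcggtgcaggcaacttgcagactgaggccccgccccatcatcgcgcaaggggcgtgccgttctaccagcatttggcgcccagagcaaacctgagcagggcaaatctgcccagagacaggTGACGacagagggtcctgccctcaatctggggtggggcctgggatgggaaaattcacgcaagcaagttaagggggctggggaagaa
H2-K1, chr17:34000348-34000597, minus strand: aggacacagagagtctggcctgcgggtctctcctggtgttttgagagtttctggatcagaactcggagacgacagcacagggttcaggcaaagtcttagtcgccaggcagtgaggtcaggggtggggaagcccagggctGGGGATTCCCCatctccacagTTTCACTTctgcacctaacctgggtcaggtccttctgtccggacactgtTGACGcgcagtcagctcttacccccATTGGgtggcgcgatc
B2m, chr2:122147437-122147686, plus strand: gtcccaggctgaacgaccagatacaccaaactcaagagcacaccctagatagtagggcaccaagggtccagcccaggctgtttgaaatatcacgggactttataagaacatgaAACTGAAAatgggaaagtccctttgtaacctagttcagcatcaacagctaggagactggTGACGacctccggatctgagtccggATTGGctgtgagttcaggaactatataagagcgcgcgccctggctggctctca

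RefSeq windows of 300 bases, 250 before and 50 from the start on, matched 8 of the 10 members. The AANNGAAA core lay in the windows of 4, H2-K1 (positions −90 and −104 in its 2 annotated windows), H2-D1 (−150), B2m (−137) and Erap1 (−4), and in 23.9% of all 32851 windows. CCAAT lay in the windows of 6 members and in 37.4% of all windows, and TGACG in those of 5 members and in 20.8% of all. The 11-base kappa B element lay in H2-K1 and H2-D1 and in 0.0304% of all windows, theirs included. Since it is the element of the class I enhancer, its match in these heavy chain genes is no independent result. The Psmb8 window held no match to these motifs, and no match overlapped a match of another motif in the members. A match is a string of letters and not a measured binding site.

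Of the whole arrays, 58.5% of probes were well above background on the KO array and 61.4% on the WT array, and no probe names Linc1548, so the targeted RNA was not read. All 9 measured markers of neural progenitors were at least 2-fold lower in KO cells (median −3.17, from Hes5 at −4.78 to Sox3 at −2.36), and 9 of 10 markers of pluripotent cells at least 2-fold higher (median 3.13, from Nanog at 0.66 to Tdgf1 at 4.54). In a bulk sample, fewer cells of a type and less RNA per cell cannot be told apart. Leukocyte markers had 3 of 9 measured genes at least 2-fold higher and 1 lower, and their 27 probes summed to 11452 on the KO array and 6900 on the WT array. Among them Ptprc (2.49-fold), Cd68 (2.49-fold) and Lyz2 (3.56-fold) were higher and Cd14 (2.23-fold) lower. Laptm5 was well above background on the KO array alone, at least 3.17-fold higher, and Aif1 and Tyrobp on neither array. Of the 7 Ptprc probes only 1 was measured on both arrays. It read 5564 on the KO array and 2232 on the WT array, a large part of the leukocyte sums. Fibroblast markers had 2 of 9 genes higher and 1 lower by 2-fold, from Col1a2 at −1.31 to Thy1 at 2.17, with sums of 5841 and 6218 in KO and WT cells. Endothelium markers had 2 of 5 higher and 0 lower, from Kdr at −0.11 to Tek at 2.10, with sums of 1099 and 481. The Tek signal of 25.0 on the WT array is close to background. Cdh5 was well above background on the WT array alone, and Tie1 on neither array. Endoderm markers had 4 of 9 higher and 1 lower (median 0.28), from Foxa2 at −1.88 to Cubn at 1.63. Their sums of 13579 in KO cells and 25327 in WT cells are carried by Foxa2, which read 5975 and 21971. Trophoblast markers had 3 of 6 higher and 2 lower (median 0.96). Cdx2, Tfap2c and Eomes were 4.64-fold, 7.08-fold and 9.33-fold higher. Gata3, the lowest at −2.04, and Krt8 at −1.32 were lower, and Elf5 and Hand1 were well above background on neither array. Bright keratin probes such as Krt18 (26134 and 31885) weigh most in the sums of 43954 and 61050. The part of these cells in the class I differences was not tested.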

How the data were processed

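Per the labels, total RNA of 1 KO and 1 WT culture was labelled with Cy3 and hybridised as a one-colour experiment. The authors deposited spot intensity values from Agilent Feature Extraction 10.7.1.1, background-subtracted and detrended within each array per the file headers, with no normalization between arrays. Both arrays share a slide and a scan. The group, the culture and the array's place on the slide cannot be told apart.

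Control spots and outlier spots (155 on the KO array, 173 on the WT array) were left out, log2 spot values were averaged per probe, and each array was centred on its 75th percentile (652 and 864 in KO and WT cells). A probe counted as measured when 0.5 or more of its spots were flagged well above background on both arrays. A gene's difference is the median over its measured probes, KO minus WT, and a fixed 2-fold limit was used. A gene well above background on a single array has a lower bound: the bright signal is divided by the dim array's lowest flagged signal, or by the gene's own dim signal where that is larger. Members were matched by the array's gene name; other genes were named through RefSeq GRCm38.p6 (accession for 32994 probes, symbol for 10224, synonym for 520, with 8418 keeping the array's name).

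Over 298 probes printed in several spots, the SD of log2 signal was 0.070 on the KO array and 0.064 on the WT array, which covers spot noise only. In a simulation with that noise, a log2 change of 1.5 was recovered in 200 of 200 genes among 18671, with 0 unchanged genes called. That noise is small beside the 2-fold limit, at an SD of 0.095 for a log2 difference, so this outcome was set by the design. The simulation held no variation between cultures, so it cannot show how often the 2-fold calls would repeat. Python 3.11.15, R 4.3.3 and limma 3.58.1 were used. The text names all members and, of each other pathway list, the genes past 2-fold with the highest and lowest, and bounds; of the marker lists and of the interferon-induced list the text gives counts with the lowest and highest genes, and further genes were named after their values were seen. Members and lists were chosen with earlier results of these data known. The number of arrays limits the precision.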

Additional observations from a re-analysis of the deposited data

How the results depend on the processing

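Among 9 alternatives, the count of members past 2-fold was 6 in the main processing and 3 with normexp (all 3 higher). The count at least 2-fold lower was 0 and became 1, B2m, with spike-in centring, without centring and with a 1.5-fold limit. The members' median of 1.1 was 0.91 with normexp, 0.71 with spike-in centring, 0.69 without centring and 1.40 without the filter on dim probes. Genes of the other pathway lists past 2-fold numbered 30, and 18 with a stricter filter that keeps signals of at least 100, which tests fewer genes. Over all genes, 2149 passed 2-fold upwards and 1644 downwards, against 1390 and 2986 with spike-in centring and 1372 and 3053 without centring; at 1.5-fold they were 4042 and 3111. No member past 2-fold changed sign under any setting run. Erap1 had no value under the stricter filter, and Nlrc5 had a difference only without the filter on dim probes (1.86). Normexp was run with an offset of 50 added to each signal, which by arithmetic narrows log2 differences of dim probes. Its part in the counts with normexp was not tested. For the other changes the cause was not tested. The slide was not used as a block because both arrays lie on 1 slide. No paired analysis was possible because each group has 1 array. Near background, the probes of Nlrc5, Erap1 and the dimmer Tap1 probe limit what can be read.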

Other observations

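Ligands of natural killer cell receptors, which are class I-like proteins in part, were also read. Of 8 measured, 4 were at least 2-fold higher in KO cells and 0 lower, against 11.5% and 8.81% of all genes. The ligands' median was 0.90, or 0.51 with spike-in centring. Only 2 ligands were at least 2-fold higher with normexp, against 8.34% of all genes. When signals of at least 100 were required, 0 ligands were, against 8.77% of all genes, and the ligands' median was 0.40. Ulbp1 read 143 on the KO array and 25.0 on the WT array, 5.71-fold higher, with the WT signal close to background. H60b read 112 and 39.6 in KO and WT cells, and H60a 106 and 49.6. Raet1a had a median of 1.96, but its probes disagreed at 0.71 and 3.22, and Raet1c was the lowest at −0.17.

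Some class I-like and interferon-induced genes had probes that disagreed. Of the H2-Q10 probes, differences ran from 0.34 to 2.00 around a median of 0.50, and those of Irgm1 from −0.02 to 3.25 around 3.16. H2-Q7 probes ran from −0.06 to 0.30.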
